A study of Mus musculus with 74 samples.

Results

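The genes described here are the 4 mouse ALDH1A genes Aldh1a1, Aldh1a2, Aldh1a3 and Aldh1a7, the retinol dehydrogenase gene Rdh10, the retinoid uptake receptor gene Stra6, and the 3 retinoic acid receptor genes Rara, Rarb and Rarg. They were taken by symbol from the deposited gene lists, and they are 9 of the 22079 gene symbols with group means in at least 1 of 5 lists. The set was chosen by role in the retinoid pathway and selected on measured values too, since the difference in mean level of Aldh1a1 and its paralogs between primary tumor (PT) and lung metastasis (Lung met) had been seen in these data. Its Lung met to PT ratios are therefore a description, and none was tested. All 9 genes had means in SEAGN and in the list deposited under AKR, 8 had them in Her2 and in C3Tag, and 7 had them in BALB.

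Retinoic acid is made from vitamin A in a pair of oxidation steps. Retinol enters many cells through STRA6, RDH10 turns it into retinaldehyde, and the retinaldehyde dehydrogenases ALDH1A1, ALDH1A2 and ALDH1A3 turn retinaldehyde into retinoic acid. Retinoic acid binds the nuclear receptors RARα, RARβ and RARγ, which sit on DNA with a retinoid X receptor and switch target genes on, and CYP26 enzymes break it down. ALDH1A1 and ALDH1A3 also give much of the aldehyde dehydrogenase activity that is widely used to sort stem-like cells from normal breast and from mammary tumors. In normal lung, retinoic acid is known for its part in the formation of alveoli.

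RNA was sequenced from bulk PT and Lung met tissue of mice that carry a mammary oncogene. The Her2 (MMTV-neu), Myc (MMTV-Myc) and PyMT (MMTV-PyMT) transgenes are driven by the mouse mammary tumor virus promoter, which is active in mammary epithelium, and C3Tag carries SV40 large T antigen under the C3(1) promoter. Her2, Myc and C3Tag mice were on the FVB background. The PyMT-F1 animals were daughters of FVB PyMT males and AKR/J, BALB/cJ (BALB) or Sea/GnJ (SEAGN) females, so all of them also carried FVB alleles. By their titles, the samples numbered 6 of each tissue in Her2, Myc and the AKR, BALB and SEAGN crosses, and 7 of each tissue in C3Tag, 74 in all. In 16 of the 36 PyMT-F1 samples the source label named the other tissue than the title and the tissue label did. In 23 the genotype label named another cross than the title. The titles serve only to count samples here, and the PyMT-F1 means were taken as deposited. Which samples entered those means is not stated, so whether these conflicts reach them is unknown. In Her2, Myc and C3Tag, tumors of animals with a single lesion were removed by surgery. The mice were then kept for a set time or until they neared a humane endpoint, whichever came first. The PyMT-F1 mice were kept until they reached a humane endpoint or were about to. PT tissue of a mouse was combined before extraction, and metastases were taken whole.

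For each model the files hold 1 mean of normalized counts for PT and 1 for Lung met, with no value of a single sample, no SD and no n. The depth of each sample is unknown. In C3Tag PT a single gene, Gm22614, took 38.3% of the summed means. The median log2 ratio of Lung met over PT over all genes lay between -0.00 and 0.03 in the 5 lists. For Myc no mean was used here, so Myc has no value below. In BALB 275 of 275 and in SEAGN 267 of 268 compared ratios equalled, within 0.5%, those the study lists for that cross. In the list deposited under AKR, 269 of 275 compared ratios equalled, within 0.5%, those the study lists for its C57BL/6J (BL6) cross. The name of the list and its values thus disagree. It is called by the deposited name throughout without a strain being assumed. Each list was normalized on its own, so levels are compared within a list and only ratios are set side by side.

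Reference promoter sequences (RefSeq, GRCm38.p6, 250 bases before to 50 after the transcription start) were found for 7 of the 9 genes, in 15 windows, and none for Aldh1a3 and Rdh10. Those of Aldh1a1, Aldh1a7 and Rarb are printed here, because they show how close Aldh1a1 and Aldh1a7 are and because Rarb carries a textbook retinoic acid response element. The Aldh1a1 window is chr19:20601718-20602017 on the plus strand, and that of Aldh1a7 is chr19:20727507-20727806 on the minus strand. Capitals mark the longest run of bases that both share, 65 bases from position -94 to -30 relative to the start in both. In the Rarb window, chr14:16575427-16575726 on the minus strand, capitals mark a DR5 element.
Aldh1a1: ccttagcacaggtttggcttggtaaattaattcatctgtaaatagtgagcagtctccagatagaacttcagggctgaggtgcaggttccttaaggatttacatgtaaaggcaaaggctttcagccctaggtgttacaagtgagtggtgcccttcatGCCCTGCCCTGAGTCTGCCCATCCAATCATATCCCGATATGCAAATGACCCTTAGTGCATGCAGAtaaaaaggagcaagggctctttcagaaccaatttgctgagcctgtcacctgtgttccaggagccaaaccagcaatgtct
Aldh1a7: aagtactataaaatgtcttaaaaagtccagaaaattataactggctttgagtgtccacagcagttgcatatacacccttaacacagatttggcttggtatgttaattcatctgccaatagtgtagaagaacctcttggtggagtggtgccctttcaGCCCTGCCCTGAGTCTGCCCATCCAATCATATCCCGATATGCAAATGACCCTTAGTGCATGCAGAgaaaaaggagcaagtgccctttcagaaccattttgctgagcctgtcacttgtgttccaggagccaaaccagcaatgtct
Rarb: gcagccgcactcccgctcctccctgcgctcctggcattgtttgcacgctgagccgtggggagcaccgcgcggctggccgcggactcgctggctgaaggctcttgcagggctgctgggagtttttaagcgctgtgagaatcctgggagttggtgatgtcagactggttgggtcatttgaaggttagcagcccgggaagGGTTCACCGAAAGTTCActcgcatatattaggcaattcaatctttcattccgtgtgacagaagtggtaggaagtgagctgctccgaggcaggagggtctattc

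Over the last 150 bases of the window, Aldh1a1 and Aldh1a7 had the same base at 142 positions (94.7%), against 32 (21.3%) for Aldh1a1 and Aldh1a2 lined up in the same way. A DR5 element is a pair of receptor half-sites in the same orientation with 5 bases between them. A half-site was read on both strands as AGGTCA, or with other letters as AGTTCA, or in place of these as GGGTCA, or lastly as GGTTCA. The Rarb element, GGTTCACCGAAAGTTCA, lay from position -53 to -37. Of all 32851 promoter windows, 32 (0.0974%) held such a DR5. Rarb was the only one of the 7 genes with a DR5 in its windows, and none of the 15 windows held a repeat with a spacer of 1 or 2 bases, which 0.222% and 0.268% of all windows did. Single half-sites were common, in 43.7% of all windows, and are not counted further. The match is to letters alone, and no binding was measured.

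Aldh1a1 had a higher mean in Lung met than in PT in all 5 lists, by 4.67-fold to 37.8-fold. Its gene (ENSMUSG00000053279) spans chr19:20492715-20643465 on the plus strand of GRCm38. In Her2 its mean was 67.1 normalized counts in PT and 756 in Lung met, a log2 ratio of 3.50. In C3Tag it was 23.8 in PT and 902 in Lung met, a log2 ratio of 5.24. In BALB it was 22.7 in PT and 106 in Lung met, a log2 ratio of 2.22. C3Tag had the widest separation of the tissues and BALB the narrowest. In SEAGN the mean was 9.57 in PT and 166 in Lung met, a log2 ratio of 4.12. In the list deposited under AKR it was 97.3 in PT and 1350 in Lung met, a log2 ratio of 3.79. Few genes of any list had a higher ratio: 34 of 18208 in Her2, 18 of 19320 in C3Tag, 58 of 17270 in BALB, 11 of 17351 in SEAGN and 48 of 17829 in the list deposited under AKR. In PT, Aldh1a1 was a low-expressed gene, with between 11.0% and 29.7% of genes below it, and in Lung met between 45.7% and 73.3% of genes had a lower mean. The tissue was sequenced in bulk, so fewer cells of a type and less RNA per cell cannot be told apart here.

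**Figure D1:**
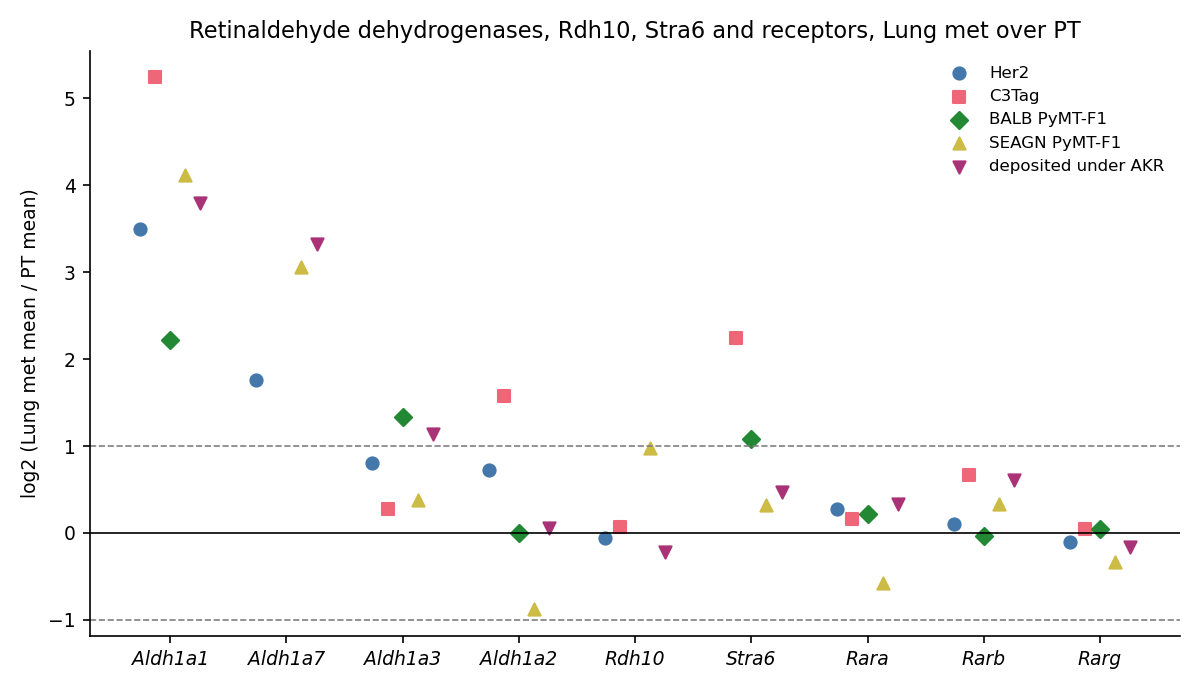
The log2 ratio of the Lung met mean over the PT mean (vertical axis) for each of the 9 genes (horizontal axis), with 1 point per list and no point where a list has no means, and dashed lines at 2-fold in either direction. Aldh1a1 lies between 2.22 and 5.24 and Aldh1a7 between 1.76 and 3.33, whereas Rara, Rarb and Rarg stay between -0.57 and 0.67.

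Aldh1a7, a rodent-specific close copy of Aldh1a1, was also higher in Lung met in each of the 3 lists with means for it. It lies 49487 bases from Aldh1a1 on the opposite strand (ENSMUSG00000024747, chr19:20692953-20727562, GRCm38). Its mean was 12.6 in PT and 42.6 in Lung met in Her2, a log2 ratio of 1.76. In SEAGN it was 6.18 in PT and 51.3 in Lung met, a log2 ratio of 3.06. In the list deposited under AKR it was 31.4 in PT and 315 in Lung met, a log2 ratio of 3.33. Aldh1a1 and Aldh1a7 were the 2 genes of the set that were at least 2-fold higher in every list that had means for them. The log2 ratio of Aldh1a7 was below that of Aldh1a1 by 1.74 in Her2, 1.06 in SEAGN and 0.47 in the list deposited under AKR. The reading frames of both genes were identical at 1380 of 1506 bases (91.6%). Of the 2017 windows of 50 bases in the Aldh1a7 transcript, 151 (7.49%) also occur unchanged in a transcript of Aldh1a1. How many reads were assigned to the wrong gene of the 2 was not measured, and this share does not bound the error. In Her2 Lung met the mean was 756 for Aldh1a1 and 42.6 for Aldh1a7, so a small share of misassigned Aldh1a1 reads could weigh on the Aldh1a7 values.

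The other paralogs were less far apart between the tissues. Aldh1a3 (ENSMUSG00000015134, chr7:66390890-66427517) was the ALDH1A gene with the highest PT level per kb in each list. Its mean was 231 in PT and 403 in Lung met in Her2 (log2 ratio 0.81), and 584 in PT and 706 in Lung met in C3Tag (0.27). In BALB it was 97.1 in PT and 244 in Lung met (1.33), and in SEAGN 97.6 in PT and 127 in Lung met (0.38). In the list deposited under AKR it was 583 in PT and 1285 in Lung met (1.14). Aldh1a3 was thus higher in Lung met in 5 of 5 lists, and at least 2-fold higher in 2, BALB and the list deposited under AKR. Its reading frame was identical to that of Aldh1a1 at 69.2% of aligned bases, and no window of 50 bases was shared.

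Aldh1a2 (ENSMUSG00000013584, chr9:71215789-71296243), the main retinoic acid producer of the early embryo, had no common direction. Its mean was 45.2 in PT and 74.5 in Lung met in Her2 (log2 ratio 0.72), and 60.8 in PT and 181 in Lung met in C3Tag (1.58). In BALB it was 15.9 in both tissues (-0.00), and in SEAGN it was 23.8 in PT and 13.0 in Lung met (-0.88). In the list deposited under AKR it was 47.5 in PT and 49.2 in Lung met (0.05). C3Tag was the only list in which Aldh1a2 differed by 2-fold, and its log2 ratio in SEAGN was the lowest of all values of the 9 genes. The Aldh1a2 promoter window held 50 CpG dinucleotides, more than 99.1% of all windows, whereas the windows printed above for Aldh1a1 and Aldh1a7 held 1 each, with fewer in 5.43% of windows.

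**Figure D2:**
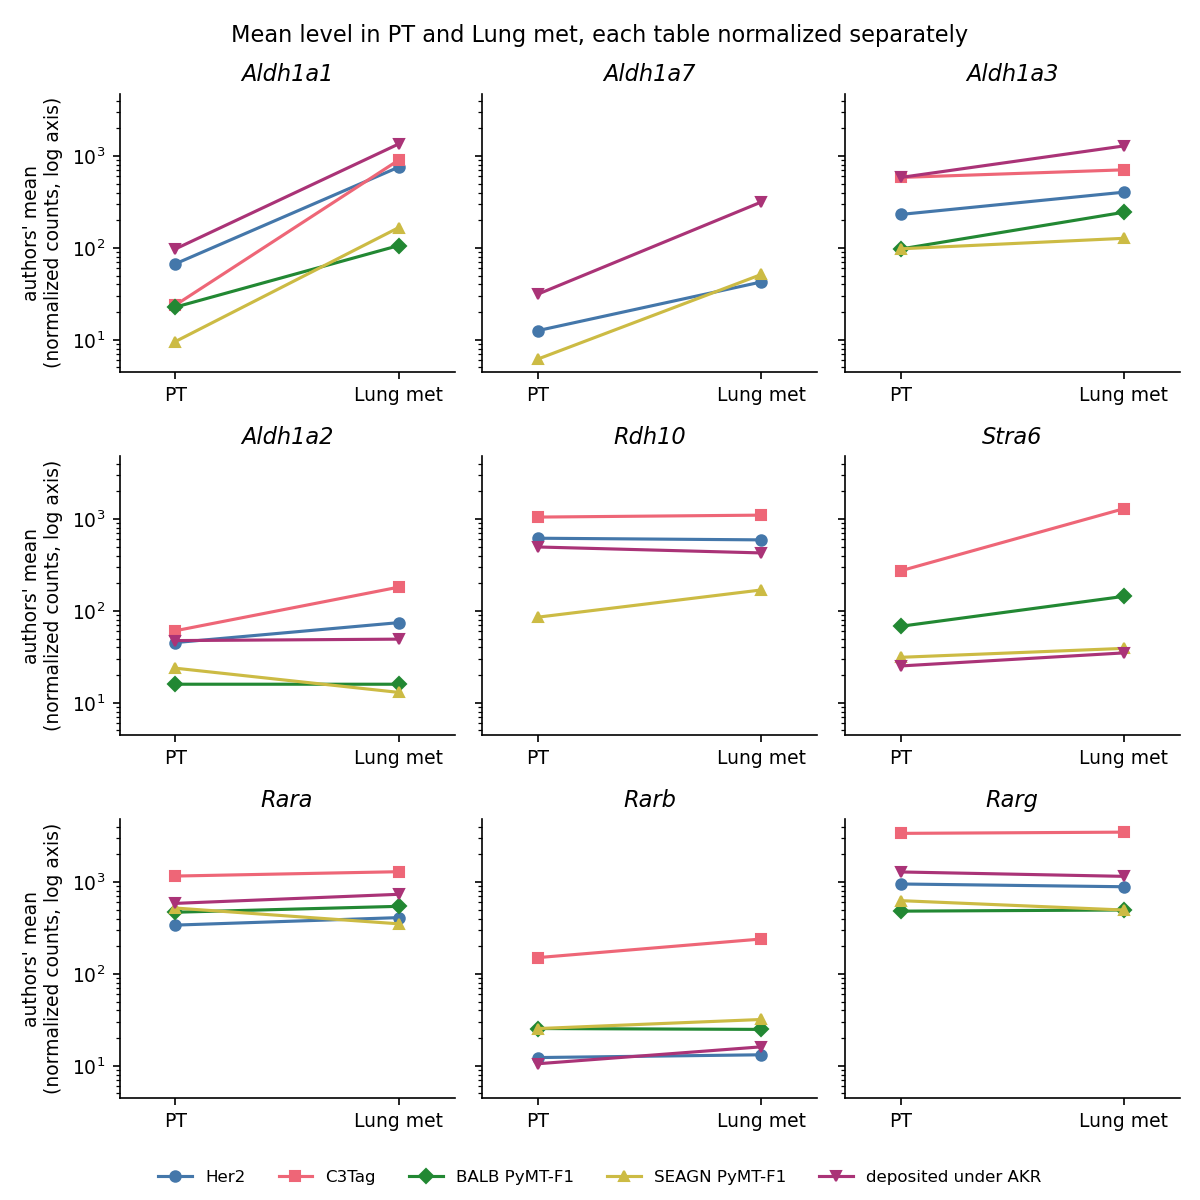
The authors' mean of normalized counts in PT and Lung met (vertical log axis) for each gene in its own panel, with 1 line per list. The Aldh1a1 lines climb in all 5 lists, from between 9.57 and 97.3 in PT to between 106 and 1350 in Lung met, and the Rarg lines are close to flat, with log2 ratios from -0.34 to 0.04.

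Set against the median log2 ratio of its paralogs, Aldh1a1 was higher by 2.69 in Her2, 4.32 in C3Tag, 1.56 in BALB, 3.74 in SEAGN and 2.65 in the list deposited under AKR. The paralog nearest to it was Aldh1a7 where that gene had means, Aldh1a2 in C3Tag, and Aldh1a3 in BALB, where the log2 ratio of Aldh1a3 was below that of Aldh1a1 by 0.90. The paralog farthest from it was Aldh1a2 in Her2, BALB, SEAGN and the list deposited under AKR, and Aldh1a3 in C3Tag.

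Levels of different genes were compared per kb of the transcript with the longest reading frame. Per kb, Aldh1a3 held the highest share of the summed ALDH1A level in PT in 5 of 5 lists, from 55.2% in Her2 to 82.1% in C3Tag. In Lung met, Aldh1a1 held the highest share in 4 of 5 lists. The Aldh1a1 share was 23.4% in PT and 65.3% in Lung met in Her2, and 4.90% in PT and 57.3% in Lung met in C3Tag. It was 8.84% in PT and 51.1% in Lung met in SEAGN, and 16.7% in PT and 51.1% in Lung met in the list deposited under AKR. BALB differed, with an Aldh1a1 share of 21.4% in PT and 36.6% in Lung met, and Aldh1a3 still ahead in Lung met at 57.7%. Aldh1a7 held at most 18.0%, in SEAGN Lung met. With the length of the union of exons in place of that transcript, the Aldh1a1 share in PT was lower, at 15.2% in Her2, 3.05% in C3Tag, 14.1% in BALB, 5.30% in SEAGN and 10.8% in the list deposited under AKR, and the highest Aldh1a7 share was 27.1%. Aldh1a1 then led in Lung met in 3 lists, because in the list deposited under AKR its share was then 37.7% and that of Aldh1a3 38.3%.

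**Figure D3:**
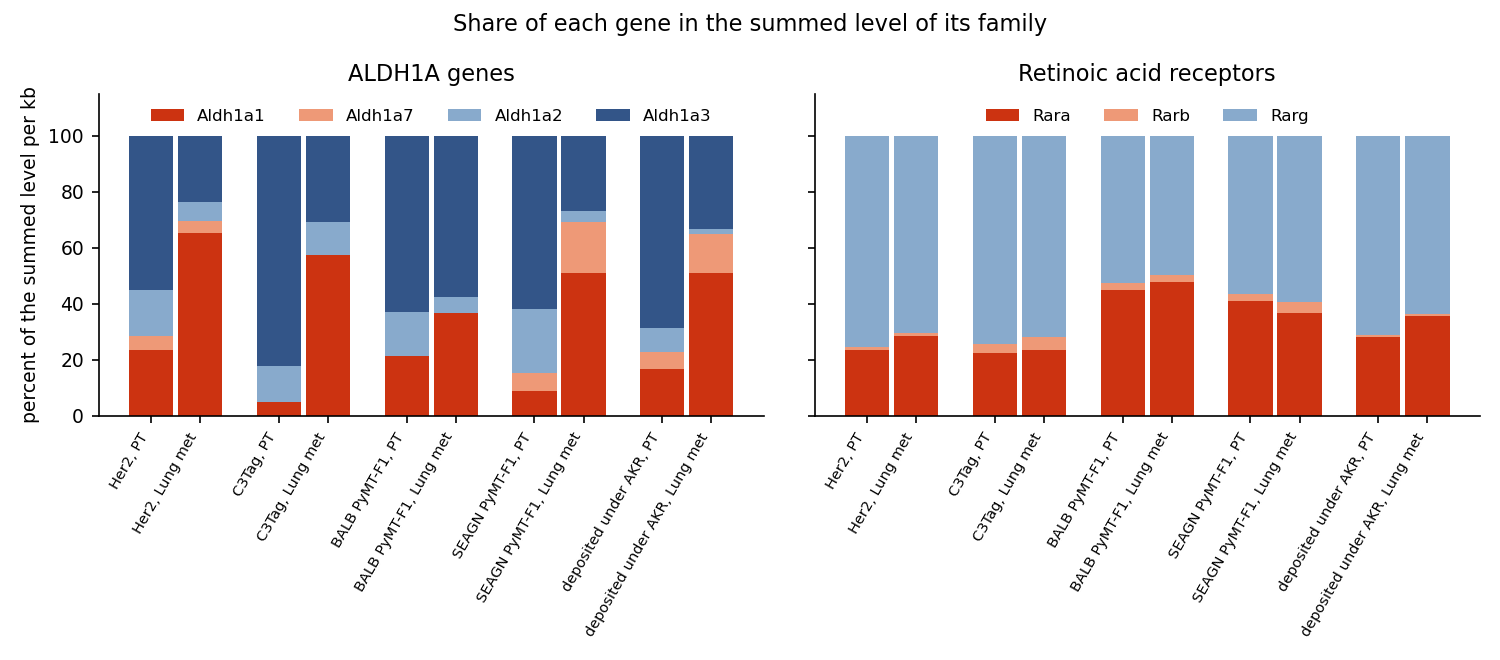
Share (percent, vertical axis) of each gene in the summed level per kb of the ALDH1A genes on the left and of the retinoic acid receptors on the right, with 1 bar per list and tissue. Aldh1a3 fills 55.2% to 82.1% of the PT bars on the left and Aldh1a1 36.6% to 65.3% of the Lung met bars, and Aldh1a7 is missing from C3Tag and BALB, which had no means for it.

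The genes upstream of the dehydrogenases did not share a pattern. Rdh10 (ENSMUSG00000025921, chr1:16105774-16133734), whose product is the main retinol dehydrogenase of the embryo, had a mean of 617 in PT and 592 in Lung met in Her2 (log2 ratio -0.06). It was 1048 in PT and 1100 in Lung met in C3Tag (0.07), and 495 in PT and 427 in Lung met in the list deposited under AKR (-0.21). SEAGN stood apart, with 85.4 in PT and 169 in Lung met, a ratio of 1.98 that is just under 2-fold. In BALB, Rdh10 had no means.

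Stra6 (ENSMUSG00000032327, chr9:58063788-58153996) was higher in Lung met in the 4 lists with means for it. In C3Tag its mean was 272 in PT and 1293 in Lung met, a log2 ratio of 2.25. In BALB it was 67.9 in PT and 144 in Lung met (1.08). It was 31.2 in PT and 39.1 in Lung met in SEAGN (0.32), and 25.1 in PT and 34.9 in Lung met in the list deposited under AKR (0.47). C3Tag and BALB were thus the lists in which Stra6 was at least 2-fold higher, and with a pseudocount of 10 the BALB log2 ratio was 0.98, just under 2-fold.

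None of the 3 receptor genes differed by 2-fold between the tissues in any list. Rara (ENSMUSG00000037992, chr11:98927818-98974942), the receptor gene expressed in most tissues, had log2 ratios of 0.27 in Her2, 0.16 in C3Tag, 0.21 in BALB, -0.57 in SEAGN and 0.33 in the list deposited under AKR. Its mean in SEAGN was 520.0 in PT and 350 in Lung met, the one list in which PT was higher. Rarg (ENSMUSG00000001288, chr15:102234938-102257517), best known from skin, spanned the narrowest range of the 9 genes, from -0.34 in SEAGN to 0.04 in C3Tag. In C3Tag its mean was 3375 in PT and 3481 in Lung met, above at least 92.5% of genes of that list in either tissue.

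Rarb (ENSMUSG00000017491, chr14:16430839-16819156), the receptor gene with the DR5 element printed above and itself a classic target of retinoic acid, was below most genes in each list. Its mean was 12.3 in PT and 13.2 in Lung met in Her2 (log2 ratio 0.10), and 25.4 in PT and 24.9 in Lung met in BALB (-0.03). It was 25.4 in PT and 31.9 in Lung met in SEAGN (0.33), and 10.5 in PT and 16.1 in Lung met in the list deposited under AKR (0.61). In C3Tag it was 150 in PT and 239 in Lung met (0.67), above 37.2% of genes in PT and 42.1% in Lung met. Lung met was higher in 4 of 5 lists, by at most 1.59-fold.

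Per kb, Rarg held the highest share of the summed receptor level in both tissues of all 5 lists, and Rarb held between 0.554% and 4.70%. In Her2 the Rarg share was 75.5% in PT and 70.6% in Lung met, and in C3Tag it was 74.5% in PT and 72.0% in Lung met. In BALB, Rarg and Rara were close, at 52.6% and 44.7% in PT and at 49.9% and 47.7% in Lung met. With the union of exons as the length, Rara came ahead of Rarg in BALB Lung met, at 50.7% against 47.4%.

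At least 2-fold higher in Lung met were 2 of 8 genes in Her2, where 2.38% of all genes were, and 3 of 8 in C3Tag, where 7.42% were. They were 3 of 7 in BALB against 2.26% of all genes, 2 of 9 in SEAGN against 2.86%, and 3 of 9 in the list deposited under AKR against 7.31%. None of the 9 genes was at least 2-fold lower in any list, where 1.43% of all genes were in Her2, 1.7% in C3Tag, 2.4% in BALB, 3.22% in SEAGN and 1.73% in the list deposited under AKR. These counts follow from how the set was drawn up. The genes that made them up were Aldh1a1 in every list, Aldh1a7 in Her2, SEAGN and the list deposited under AKR, Stra6 in C3Tag and BALB, Aldh1a3 in BALB and the list deposited under AKR, and Aldh1a2 in C3Tag. The median log2 ratio of the listed members was 0.50 in Her2, 0.47 in C3Tag, 0.21 in BALB, 0.33 in SEAGN and 0.47 in the list deposited under AKR.

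**Figure D4:**
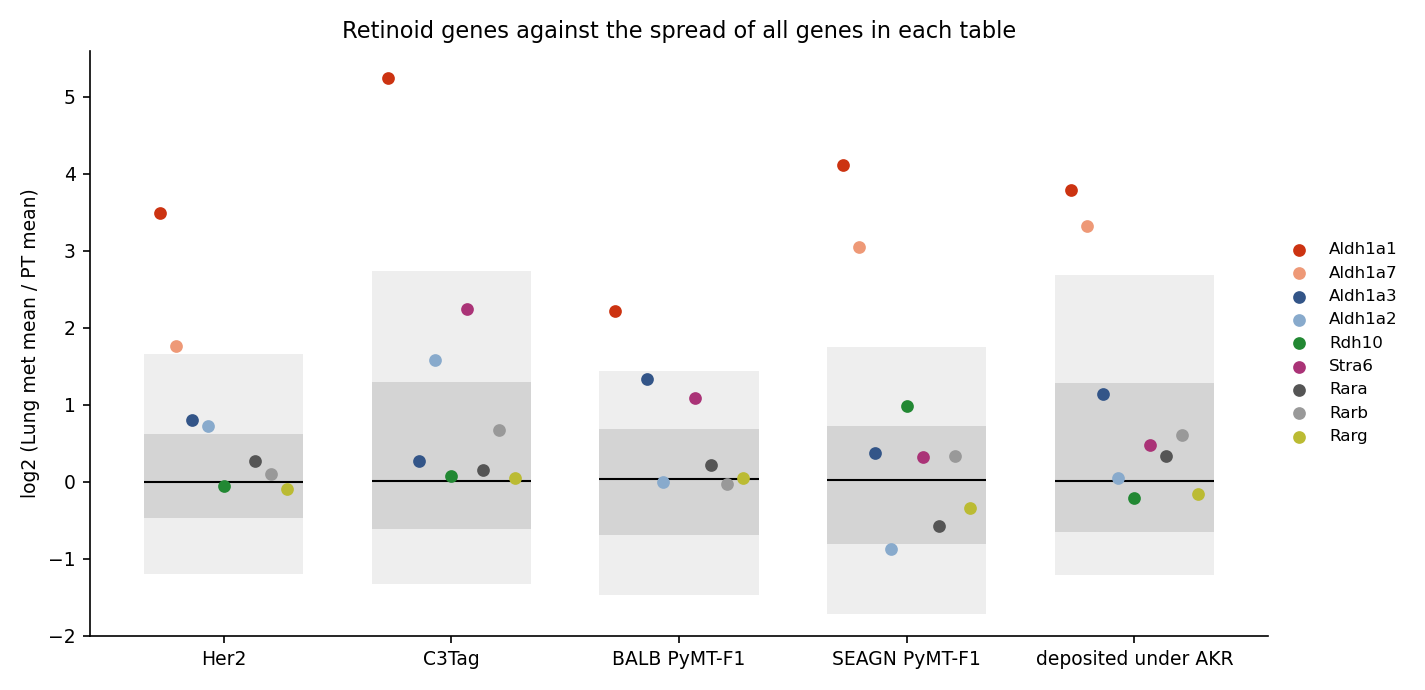
The log2 ratio of the Lung met mean over the PT mean (vertical axis) of each gene of the set (colored points) in each list, over the 1st to 99th percentile (light grey), the 5th to 95th percentile (dark grey) and the median (black line) of all genes. Aldh1a1 lies above the 99th percentile of all genes, which is between 1.44 and 2.74, in every list.

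The rest of the retinoid pathway was counted from lists of known genes, to be read against the all-gene shares at least 2-fold higher given above (2.38% in Her2, 7.42% in C3Tag, 2.26% in BALB, 2.86% in SEAGN and 7.31% in the list deposited under AKR). Among genes of retinoid uptake, binding and storage, 0 of 6 with means were at least 2-fold higher in Lung met in Her2, 2 of 8 in C3Tag, 2 of 7 in BALB, 3 of 7 in SEAGN and 3 of 8 in the list deposited under AKR. In SEAGN 1 of 7 was at least 2-fold lower, where 3.22% of all genes were, and none was in the other lists. Lrat, whose product stores retinol as its ester, was at least 2-fold higher in the 3 lists with means for it. Its mean was 10.6 in PT and 55.4 in Lung met in C3Tag, 3.86 and 17.9 in SEAGN, and 3.00 and 41.2 in the list deposited under AKR. Lrp2, which encodes the endocytic receptor megalin, had log2 ratios of 6.12 in BALB and 4.65 in the list deposited under AKR, from a PT mean of 2.79 in BALB and 31.5 in the other.

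Among retinol and retinaldehyde oxidoreductases, 1 of 13 was at least 2-fold higher and 1 lower in Her2. The counts were 3 higher of 11 in C3Tag, 0 of 9 in BALB, 0 of 9 in SEAGN and 2 of 12 in the list deposited under AKR, with none lower, where 7.42%, 2.26%, 2.86% and 7.31% of all genes were higher. Dhrs9, which encodes a retinol dehydrogenase of epithelia, was higher in Lung met in all 5 lists, with log2 ratios from 0.88 in SEAGN to 2.61 in Her2, and at least 2-fold higher in 3. Of the CYP26 genes of retinoic acid breakdown, Cyp26b1 ranged from -1.13 in Her2 to 2.21 in the list deposited under AKR, and Cyp26a1 from -1.10 in that same list to 0.76 in SEAGN. The 2 genes thus went in opposite directions in the list deposited under AKR, where Cyp26a1 had a mean of 49.8 in PT and 23.3 in Lung met and Cyp26b1 42.5 in PT and 197 in Lung met.

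Of the retinoic acid target genes, a list that shares genes such as Cyp26a1, Cyp26b1, Dhrs3, Crabp2 and Lrat with those above, 1 of 8 was at least 2-fold higher in Her2, 2 of 9 in C3Tag, 0 of 8 in BALB, 3 of 9 in SEAGN and 4 of 10 in the list deposited under AKR. Of all genes, 2.38%, 7.42%, 2.26%, 2.86% and 7.31% were in the same order of lists. At least 2-fold lower was 1 of 8 in Her2 (Cyp26b1), 1 of 9 in SEAGN and 1 of 10 in the list deposited under AKR (Cyp26a1). Of all genes, 1.43%, 3.22% and 1.73% were, and no target gene was in C3Tag or BALB. The median log2 ratio of the list lay between 0.19 in Her2 and 0.73 in the list deposited under AKR. Hoxa5, a homeobox gene with a role in lung development, was at least 2-fold higher in the 4 lists with means for it. Its mean was 46.4 in PT and 107 in Lung met in Her2, 43.3 and 125 in C3Tag, 11.4 and 27.2 in SEAGN, and 17.1 and 152 in the list deposited under AKR. Dhrs3, which encodes a retinaldehyde reductase induced by retinoic acid, stayed between -0.14 in BALB and 0.50 in C3Tag.

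Receptor partners and coregulators, such as the retinoid X receptors, differed little. In C3Tag 1 of 11 genes with means was at least 2-fold higher, Nr2f2 with a log2 ratio of 1.51, where 7.42% of all genes were. In the other lists 0 of 10 or 11 were, where 2.26% to 7.31% of all genes were. None was at least 2-fold lower in any list. The other aldehyde dehydrogenases had 14 of 16 genes with means in each list. At least 2-fold higher were 3 of 14 in C3Tag, where 7.42% of all genes were. They were Aldh1l1, Aldh3b1 and Aldh2, with log2 ratios of 1.83, 1.30 and 1.06. In BALB 1 of 14 was at least 2-fold lower, Aldh3b2 at -1.31, where 2.4% of all genes were. In Her2, SEAGN and the list deposited under AKR no other aldehyde dehydrogenase reached 2-fold, and none of the 14 in any list had a ratio as high as that of Aldh1a1 there.

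Markers of lung cells were also higher in the Lung met means, and their part in the values above was not tested. Of 6 markers of alveolar type 1 cells, 5 were at least 2-fold higher in Her2, 6 in C3Tag, 4 in BALB, 4 in SEAGN and 5 in the list deposited under AKR, with median log2 ratios from 2.89 to 3.92. Their summed mean in Lung met was 0.834 to 4.74 times that in PT, and it was the lower of both in Her2 and BALB, where Aqp5 made up most of it, with a mean of 57616 of the 57984 in Her2 PT. Of 7 markers of alveolar type 2 cells, the 4 with means had median log2 ratios of 1.24 in Her2, 7.06 in C3Tag, 3.96 in BALB, 4.57 in SEAGN and 3.50 in the list deposited under AKR. The summed mean of these 4 genes was 1925 to 8704 in PT and 5628 to 37278 in Lung met, and higher in Lung met in each list. C3Tag had both the highest alveolar type 2 median and the highest Aldh1a1 ratio, whereas Her2 had the lowest alveolar type 2 median and an Aldh1a1 ratio above that of BALB. The alveolar type 1 medians had another order, from 2.89 in Her2 and 3.11 in BALB to 3.92 in the list deposited under AKR. C3Tag had 3.31 there and SEAGN 3.81. In Her2 PT, Abca3, Slc34a2 and Sftpd had means of 5907, 1565 and 1213, and the log2 ratio of Lamp3 in Her2 was 5.19. The defining markers Sftpc, Sftpb and Sftpa1 of alveolar type 2 cells and Scgb1a1 of airway cells were not among the genes analysed here. The airway marker Cyp2f2 was at least 2-fold higher in 5 of 5 lists, with log2 ratios from 1.02 to 3.63. Foxj1, the other airway marker with means, reached 2-fold in none of 4 lists and ranged from -0.42 in SEAGN to 0.94 in C3Tag. The median of the 1 or 2 airway markers with means lay between 0.64 and 2.84.

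Markers of endothelium had medians from 0.59 in Her2 to 1.79 in the list deposited under AKR, with summed means of 919 to 3174 in PT and 1517 to 8277 in Lung met. Those of lung lipofibroblast and alveolar fibroblast, of which 2 to 4 of 6 had means, had medians from 0.25 in Her2 to 2.10 in the list deposited under AKR. Markers of fibroblast had medians from -2.55 in SEAGN to -0.34 in C3Tag. Thy1 and Lum were at least 2-fold lower in 5 of 5 lists, whereas Pdgfra was higher in all 5, with log2 ratios from 0.44 to 0.94, and Dcn was higher in C3Tag at 0.75. Mesothelium markers had means in C3Tag alone, 2 of 5 with a median of 1.80, and of the adipocyte markers Fabp4 alone had means, with log2 ratios from -2.73 in SEAGN to -0.38 in Her2. Medians lay between -0.36 and 0.43 for macrophage, between -0.04 and 0.87 for T and B cell, and between -0.55 and 0.96 for basal and myoepithelium markers. Markers of luminal epithelium, which mammary tumor tissue should hold, were present in every list, with summed means of 17208 to 118405 in PT and 20776 to 117508 in Lung met, and their medians stayed between -0.23 and 0.29.

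**Figure D5:**
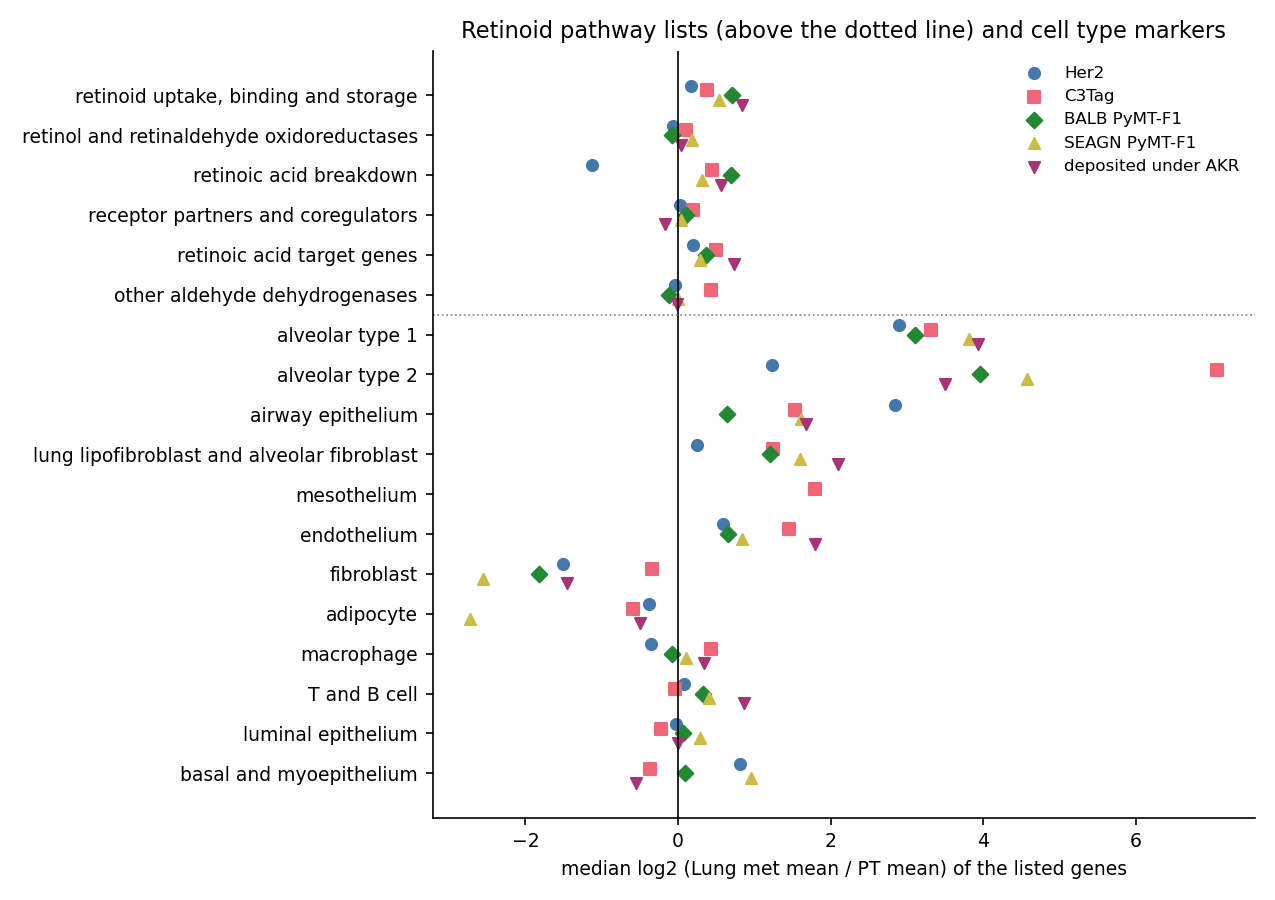
The median log2 ratio of the Lung met mean over the PT mean (horizontal axis) of the genes with means in each retinoid pathway list, above the dotted line, and each list of cell type markers, below it, with 1 point per deposited list. The pathway medians stay between -1.13 and 0.84, and the alveolar type 1 and type 2 medians between 1.24 and 7.06.

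Over the 5 lists, the genes whose log2 ratios lay nearest to those of Aldh1a1, by Euclidean distance among 11920 genes, were Atp6v0d2 at 1.63, Napsa at 1.90, Igkc at 1.93, Cxcr2 at 1.99 and Hdc at 2.05. Atp6v0d2 encodes a subunit of the vacuolar proton pump known from osteoclasts, and Napsa the aspartic protease napsin A of alveolar type 2 cells. Igkc is the constant region of the immunoglobulin kappa chain, Cxcr2 a chemokine receptor of neutrophils, and Hdc makes histamine. The genes nearest to Aldh1a3 were Slc43a3, Ankrd37, Plekhs1, Rasgrp1 and Lpcat4, at distances from 0.54 to 0.65. Those nearest to Rarb were Iffo1, Stard13, 4930581F22Rik, Atp8a1 and Fermt3, from 0.16 to 0.21. Aldh1a7, Rdh10 and Stra6 lacked means in at least 1 list and were not compared, and no other gene of the set was among these neighbours. Aldh1a3 stood at place 560 in the order of distance from Aldh1a1, at 7.33, and Rarb at place 1089, at 7.87. Most of the 11920 genes lay farther still from Aldh1a1. In the order of distance from Aldh1a3, Aldh1a1 stood at place 11907, and in that from Rarb at place 11910.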

How the data were processed

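Bulk RNA of both tissues was sequenced, and the authors deposited 1 list of genes per model. Per the study's methods, the authors used Partek Flow to align, count and normalize, and they compared the tissues with DESeq2 in PyMT-F1 and with Gene Specific Analysis in the driver models. The methods of the authors name the mm9 and mm10 assemblies, whereas the processing notes the authors gave with the samples name STAR 2.7.8a, mm39 and DESeq2, so the build of each list is not settled. The labels give a stranded total RNA kit with removal of ribosomal RNA, whereas the study's methods describe mRNA libraries. The signal used here is the authors' least-squares mean of normalized counts per tissue, as deposited, and which samples entered it is not stated. The lists also hold the authors' p-values, FDR, ratios and fold changes, which were not used. The Myc list holds only such columns. The ratios in the list deposited under AKR matched those the study lists for another PyMT cross (BL6), so its strain was not assumed. In 23 of the 36 PyMT-F1 samples the title and the genotype label disagreed, and titles were used to count samples.

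From the means, log2 (Lung met / PT) was computed without a pseudocount, and 2-fold or more was counted as different (numpy 2.4.6, pandas 2.3.3). No test was possible. The 5 lists in use had 17270 to 19320 genes with means. Gene names are those of the lists, coordinates and lengths are from GENCODE M21 (GRCm38), promoters from RefSeq (GRCm38.p6), and sequences were aligned with Biopython 1.88. The BALB and SEAGN lists carry identifiers of a BALB/cJ annotation, and 2671 and 2684 of their genes have no symbol. The genes, the pathway and marker lists and the choice of neighbours (all 9 genes, then list genes, and the 5 nearest to Aldh1a1, Aldh1a3 and Rarb with a mean of at least 10 in 1 tissue of each list) were chosen with earlier results of these data known. Genes of the lists beyond those 2-fold in one direction everywhere were named after their values were seen. The pathway counts and medians include 1 gene whose own values are not reported here. The computation was tested on simulated data.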

Additional observations from a re-analysis of the deposited data

How the results depend on the processing

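Alternatives were a limit of 1.5-fold, a pseudocount of 1 or 10, scaling to the median gene, a mean of at least 10, and paralogs without Aldh1a7. With 1.5-fold as the limit, 4 genes of the set passed in Her2 and 4 in SEAGN, in place of 2 in each. Without Aldh1a7, Aldh1a1 stood 4.37 above the median log2 ratio of its paralogs in SEAGN, in place of 3.74. The other 18 counts and 14 differences moved by less than 1.5 times. Neither a pseudocount on both means nor a scaling shift of at most 0.03 can turn a ratio past 2-fold. The direction of these ratios was therefore not tested. With a pseudocount of 10 the SEAGN log2 ratio was 3.17 for Aldh1a1 and 1.92 for Aldh1a7, both with PT means under 10, and Stra6 in BALB fell just under 2-fold at 0.98. Leaving out the list deposited under AKR was chosen after seeing the data. It added no gene to Aldh1a1 and Aldh1a7 as at least 2-fold higher in every list with means for them. These 2 had to stay, because they passed in every list that held them. Another gene length, also chosen after seeing the data, moved the order within families where the report says so. Scaling subtracted at most 0.03 on the log2 scale. For Myc no alternative was run. No paired analysis was possible because the files hold only group means, and no replicate could be left out for the same reason. The means carry no error, so a difference between lists or genes cannot be set against the spread between animals.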
